A study of Homo sapiens with 6 samples.

Results

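In 5637 cells with YKT6 knockdown, the transcript of MT2A, the most abundant metallothionein gene measured, was higher than in control cells. Those of the zinc exporter SLC30A1 and of the zinc importers SLC39A6, SLC39A10 and SLC39A14 were lower. The fall of SLC39A6 was small, to 92.8% of the control mean, and it did not pass the test under 5 of 14 alternative settings. The set described here holds 10 genes chosen by name: the metallothioneins MT2A, MT1X, MT1E, MT1F and MT1G, the zinc-sensing transcription factor MTF1, and the transporters SLC30A1, SLC39A6, SLC39A10 and SLC39A14. Of these 10 genes, 9 had a row among the 36887 genes of the count table, and 8 had enough reads to be tested. MT1G was not analysed here, and MT1E had too few reads for a test. Levels are CPM, the counts of a gene as a share of the TMM-adjusted library size, and changes are log2 fold changes of siYKT6 over siNC from the quasi-likelihood test of edgeR, with p values adjusted over the 21036 genes tested and a threshold of 0.05.

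5637 is an established human bladder cancer (BLCA) cell line of epithelial origin. The study collected RNA from 3 samples transfected with a control siRNA (siNC) and 3 transfected with siRNA against YKT6 (siYKT6), 48 h after transfection, and sequenced 1 mRNA library per sample. YKT6 is a SNARE protein that acts in membrane fusion. Neither the labels nor the methods say whether the 3 samples of a group came from separate cultures, so p values measure the spread between these samples, which may be technical, nor whether 1 siRNA was used in all 3 siYKT6 samples. YKT6 itself stood at 64.5, 65.3 and 68.2 CPM in siNC samples and at 17.7, 19.4 and 17.3 CPM in siYKT6 samples, so that the groups lay far apart (log2 fold change -1.86, standard error 0.0477, adjusted p = 5.3e-17). The libraries held 45205238 to 64982015 counted reads. All 10 listed urothelial and epithelial markers were expressed, 7 of them, with KRT17, KRT5, TP63 and KRT19 first by p, lower in siYKT6 cells and EPCAM higher. Of all genes tested, 16.3% were lower and 14.6% were higher. Of 12 listed leukocyte, endothelial and fibroblast markers, 3 reached a mean of 1 CPM. The summed level of the 12 was 30.9 to 33.6 CPM in siNC and 35.2 to 37.9 CPM in siYKT6 samples, most of it from COL1A1 at 23.3 to 24.7 and 27.6 to 30.1 CPM. Of the 7 tested, 2 were higher and 1 was lower in siYKT6 cells: COL1A1 (log2 fold change 0.26, adjusted p = 3.0e-04), the endothelial marker VWF (0.44 ± 0.225 to 0.92 ± 0.0834 CPM, log2 fold change 1.01, adjusted p = 0.013, but 0.072 without siNC replicate 2) and the macrophage marker CD68 (4.60 ± 0.399 to 3.67 ± 0.400 CPM, log2 fold change -0.32, adjusted p = 0.032, but 0.055 with DESeq2 and 0.0533 to 0.167 without any 1 of siNC replicates 1 and 2 and siYKT6 replicates 1 and 2). PTPRC and CD3E had at most 8 reads in any library. The part of these markers in the results on zinc genes was not tested.

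Metallothioneins are small, cysteine-rich proteins that bind zinc and copper in the cytosol and buffer the free metal. When cytosolic zinc rises, MTF1 binds zinc through its zinc fingers and occupies metal response elements in the promoters of metallothionein genes and of SLC30A1, whose transcription it raises. Most transporters of the SLC30 (ZnT) family move zinc out of the cytosol, across the plasma membrane or into organelles, and those of the SLC39 (ZIP) family bring zinc into it. SLC39A10 is known in mouse as a gene that MTF1 represses.

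The promoters of the metallothioneins and of SLC30A1 are shown first, since the core of the metal response element in them is the sequence through which MTF1 is known to act. RefSeq promoter windows (build GRCh38.p14, 250 bases before to 50 after the start of transcription) were searched on both strands for the cores TGCACNC and TGCGCNC, and 6 of the members, MT2A, MT1X, MTF1, SLC30A1, SLC39A6 and SLC39A10, matched a window of the table. Among all 35116 windows, 29.6% held at least 1 core, 8.60% at least 2, 0.601% at least 4 and 0.0199% at least 8. The windows lie at chr16:56608334-56608633 (plus strand) for MT2A, at chr16:56682220-56682519 (plus strand) for MT1X and at chr1:211579112-211579411 (minus strand) for SLC30A1, and each is printed 5′ to 3′ on the strand of its gene with the cores in capitals.
MT2A: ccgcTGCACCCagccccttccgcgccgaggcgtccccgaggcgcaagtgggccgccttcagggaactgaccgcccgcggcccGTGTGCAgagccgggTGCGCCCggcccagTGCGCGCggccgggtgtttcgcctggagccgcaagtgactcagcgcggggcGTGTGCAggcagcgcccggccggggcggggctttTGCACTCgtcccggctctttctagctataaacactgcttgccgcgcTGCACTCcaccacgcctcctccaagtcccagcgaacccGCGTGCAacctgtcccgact
MT1X: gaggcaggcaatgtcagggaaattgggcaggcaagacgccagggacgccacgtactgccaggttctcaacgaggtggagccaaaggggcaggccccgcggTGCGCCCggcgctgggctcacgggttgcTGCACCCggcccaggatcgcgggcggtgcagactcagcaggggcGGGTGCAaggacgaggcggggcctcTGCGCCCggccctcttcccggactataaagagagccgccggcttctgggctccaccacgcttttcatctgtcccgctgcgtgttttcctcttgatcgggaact
SLC30A1: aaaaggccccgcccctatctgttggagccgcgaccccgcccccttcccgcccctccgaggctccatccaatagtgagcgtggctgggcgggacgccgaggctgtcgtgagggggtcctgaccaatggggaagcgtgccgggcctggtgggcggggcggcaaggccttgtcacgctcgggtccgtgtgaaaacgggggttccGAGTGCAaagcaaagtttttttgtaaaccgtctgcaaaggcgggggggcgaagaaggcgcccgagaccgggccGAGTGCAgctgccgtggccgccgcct

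MT2A held 8 cores, 5 of them on the strand of the gene, and MT1X held 4, 3 of them on that strand. In the SLC30A1 window the 2 cores lay on the other strand, and the window did not overlap the exons counted for this gene. SLC39A6 held 1 core. SLC39A10 had a pair of windows with 0 and 1 cores, and the MTF1 window held 0. A core is a match of letters, not a measured binding site.

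**Figure D1:**
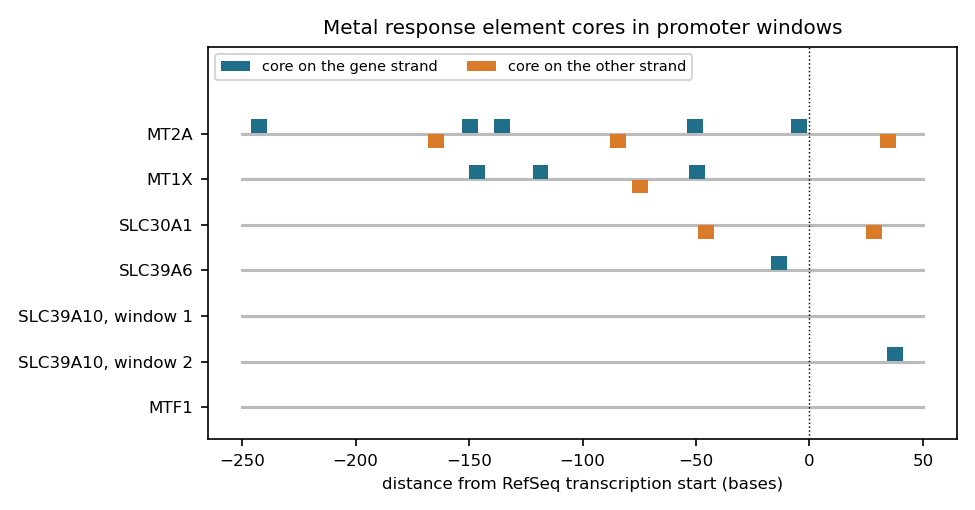
Positions of metal response element cores in the RefSeq promoter windows of 6 genes, as the distance from the start of transcription in bases, with cores on the gene strand drawn above the line and those on the other strand below it. MT2A has 8 cores, MT1X 4 and SLC30A1 2, and the first SLC39A10 window and MTF1 have 0.

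Of the 8 members tested, 1 was higher and 4 were lower in siYKT6 cells, and 3 did not pass the test. Over all genes tested, 30.8% passed in either direction, 14.6% as higher and 16.3% as lower, so calls were common in this comparison. The 3 siNC and 3 siYKT6 samples did not overlap for 6 of the 8 members, against 41.8% of all genes tested. The median log2 fold change of the 8 members was -0.09, and that of all genes tested was 0.0022. In size, the change of SLC30A1 was larger than that of 88.1% of the genes tested, that of SLC39A10 larger than 79.3% and that of MT2A larger than 68.9%, while those of SLC39A6 and MTF1 were larger than 34.8% and 24.5%. An exact two-sided permutation test over the samples cannot give less than p = 0.1 with 3 against 3 samples, and MT2A, MT1X, SLC30A1, SLC39A6, SLC39A10 and SLC39A14 all stood at that p. In bulk RNA, less RNA per cell and fewer cells that express a gene cannot be told apart.

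**Figure D2:**
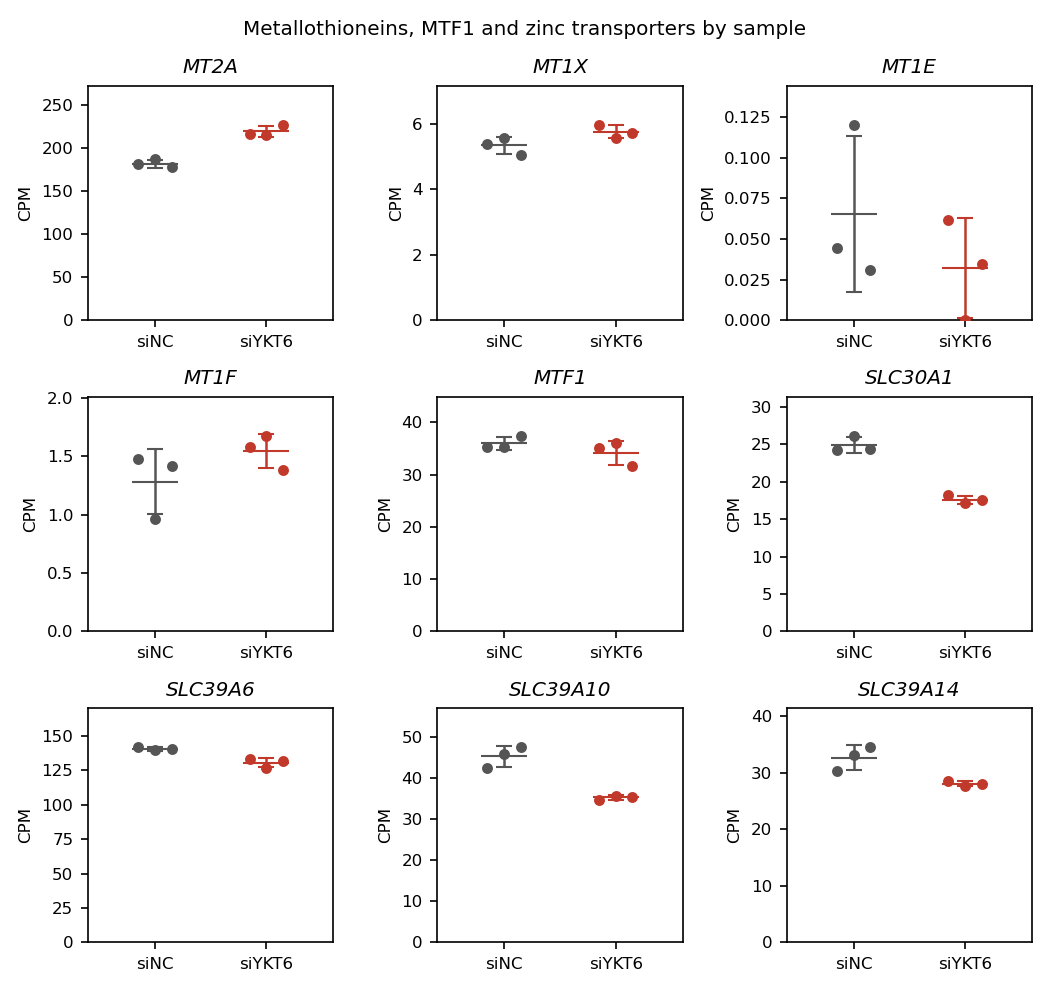
CPM of the 9 measured genes in each of the 3 siNC and 3 siYKT6 samples (points), with the mean (long line) and SD (short lines), on axes that start at 0. MT2A runs from 177.9 to 187.3 CPM in siNC and from 215.2 to 227.2 CPM in siYKT6 samples, and SLC30A1 from 24.3 to 26.1 and from 17.2 to 18.2 CPM.

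The metallothionein transcripts were dominated by MT2A, which is usually the most abundant metallothionein of human cells. MT2A (chr16:56608199-56609497, GRCh38, plus strand) stood at 182.1, 187.3 and 177.9 CPM in siNC samples and at 216.9, 215.2 and 227.2 CPM in siYKT6 samples. Every siYKT6 sample was above every siNC sample, and the distance between the groups exceeded the spread within either of them. The mean rose from 182.4 ± 4.66 to 219.8 ± 6.52 CPM (SD, n = 3 each), to 120.4% of the siNC mean, with a log2 fold change of 0.27 (standard error 0.0342, 95% interval 0.20 to 0.34, adjusted p = 2.7e-06). It rested on 8147 to 14118 reads per library. Its annotated exons overlapped no other gene, and 4.48% of its 50-base words also occurred in transcripts of other genes.

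MT1X (chr16:56682424-56684196, plus strand), a member of the MT1 cluster on the same chromosome, was present at a far lower level. It stood at 5.39, 5.56 and 5.06 CPM in siNC and at 5.96, 5.58 and 5.73 CPM in siYKT6 samples. The groups did not overlap, but their nearest samples, at 5.56 and 5.58 CPM, almost met, and the change did not pass the test (means 5.34 ± 0.257 and 5.76 ± 0.193 CPM, log2 fold change 0.11, standard error 0.0883, 95% interval -0.07 to 0.30, adjusted p = 0.38). The interval includes the log2 fold change of MT2A, 0.27. Of the 50-base words of MT1X, 18.7% were shared with other genes. Its exons overlapped those of RP11-343H19.2 on the same strand, by 222 bases in the longest overlap. For these reasons its value is less certain than that of MT2A.

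MT1F (chr16:56657694-56660698, plus strand), another gene of this cluster, stood at 1.48, 0.961 and 1.42 CPM in siNC and at 1.58, 1.67 and 1.38 CPM in siYKT6 samples. The groups overlapped, since the lowest siYKT6 sample lay below 2 of the siNC samples. Its log2 fold change was also 0.27, but on 48 to 106 reads per library its standard error was 0.187 and its 95% interval ran from -0.12 to 0.66 (adjusted p = 0.32). MT1E (chr16:56625475-56627112) had 2, 6 and 2 reads in the siNC and 4, 0 and 2 reads in the siYKT6 samples. A count of 0 allows up to 3 independent counts, and more reads where both mates of a pair count. No difference was detectable at this depth and no fold is given. Of 13 other metallothionein genes and pseudogenes looked for, 5 had a row, MT1A, MT1L, MT1DP, MT1CP and MT2P1, each with at most 8 reads in any library.

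Summed over the 9 metallothionein rows, the level was 189.3, 194.0 and 184.6 CPM in siNC samples and 224.5, 222.5 and 234.5 CPM in siYKT6 samples. MT2A gave 96.2% to 96.5% of this sum in the siNC samples and 96.6% to 96.9% in the siYKT6 samples. MT1X gave 2.74% to 2.87% and 2.44% to 2.65%. The metallothionein RNA that could be counted in these cells was thus almost entirely MT2A in all 6 samples.

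MTF1 (chr1:37809567-37859620, minus strand), the transcription factor that acts on these promoters, stood at 35.3, 35.2 and 37.4 CPM in siNC and at 35.0, 36.0 and 31.6 CPM in siYKT6 samples. The groups overlapped. Its change did not pass the test, with -0.07 as log2 fold change (standard error 0.0496, adjusted p = 0.30), and the 95% interval of -0.18 to 0.03 bounds the difference in transcript level. The activity of the MTF1 protein was not measured.

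SLC30A1 (chr1:211571568-211578742, minus strand) encodes ZnT1, the zinc exporter of the plasma membrane. It stood at 24.3, 26.1 and 24.4 CPM in siNC and at 18.2, 17.2 and 17.5 CPM in siYKT6 samples. The siYKT6 samples lay together below all siNC samples, with a gap several times the spread within a group. The mean fell from 24.94 ± 1.02 to 17.62 ± 0.522 CPM, to 70.7% of the siNC mean, with a log2 fold change of -0.50 (standard error 0.0519, 95% interval -0.61 to -0.39, adjusted p = 1.6e-07). It was the largest change in size among the 8 members tested, on 1012 to 1569 reads per library, and none of its 50-base words occurred in another gene. MT2A and SLC30A1, whose promoter windows are printed above, thus moved in opposite directions.

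The 3 importers of the set were each lower in siYKT6 cells, to different degrees. SLC39A10 (chr2:195575977-195737702, plus strand) encodes ZIP10, a zinc importer of the plasma membrane, and stood at 42.6, 45.9 and 47.6 CPM in siNC and at 34.7, 35.8 and 35.5 CPM in siYKT6 samples. Its siNC samples were more spread than its siYKT6 samples, and the groups did not overlap. The mean fell from 45.38 ± 2.55 to 35.33 ± 0.538 CPM, to 77.9% of the siNC mean (log2 fold change -0.36, standard error 0.0450, 95% interval -0.46 to -0.27, adjusted p = 1.9e-06).

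SLC39A6 (chr18:36108532-36129385, minus strand) encodes ZIP6, which is known to form a complex with ZIP10. Of the 50-base words of SLC39A6, 4.77% also occurred in transcripts of another gene. Among the 18 zinc transporters tested, it had the highest level per kilobase of exon in siNC samples, 38.2 ± 0.331 CPM per kilobase, just above SLC39A7 at 36.5 ± 1.16. In siYKT6 samples SLC39A6, at 35.4 ± 0.892 CPM per kilobase, lay below SLC39A7 at 39.4 ± 0.805 and level with SLC39A1 at 35.5 ± 1.24. It stood at 141.9, 139.5 and 140.3 CPM in siNC and at 132.9, 126.7 and 131.7 CPM in siYKT6 samples. The groups did not overlap, but the step was small, to 92.8% of the siNC mean (140.5 ± 1.22 to 130.5 ± 3.28 CPM, log2 fold change -0.11, standard error 0.0338, adjusted p = 0.019). This call was lost under 5 of 14 alternative settings, with adjusted p = 0.0525 under upper quartile scaling, 0.0571 without a filter on low counts, and 0.0720, 0.0511 and 0.124 without siNC replicate 1, siNC replicate 3 and siYKT6 replicate 2.

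SLC39A14 (chr8:22367249-22434129, plus strand) encodes ZIP14, which carries zinc, iron and manganese. It stood at 30.2, 33.1 and 34.5 CPM in siNC and at 28.5, 27.6 and 28.0 CPM in siYKT6 samples. As for SLC39A10, the siYKT6 samples lay close together below all siNC samples. The mean fell from 32.63 ± 2.18 to 28.01 ± 0.439 CPM, to 85.9% of the siNC mean (log2 fold change -0.22, standard error 0.0495, 95% interval -0.33 to -0.12, adjusted p = 0.0014).

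Levels of different genes were compared per kilobase of exon, using the length given in the table, which sums all annotated exons and is longer than the mature MT2A mRNA. In siNC samples MT2A stood highest of the members at 140 ± 3.59 CPM per kilobase, followed by SLC39A6 at 38.2 ± 0.331 and SLC39A10 at 6.56 ± 0.368. SLC39A14, SLC30A1 and MTF1 followed at 4.70 ± 0.314, 4.56 ± 0.187 and 4.48 ± 0.152 CPM per kilobase and could not be ordered, since the ranges of mean ± SD of each neighbouring pair overlapped. MT1X came next at 3.01 ± 0.145, then MT1F at 0.680 ± 0.149 and MT1E at 0.0621 ± 0.0456 CPM per kilobase. In siYKT6 samples the level of SLC30A1 was 3.22 CPM per kilobase, next to MT1X at 3.25, while MTF1 stood at 4.26 and SLC39A14 at 4.04.

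**Figure D3:**
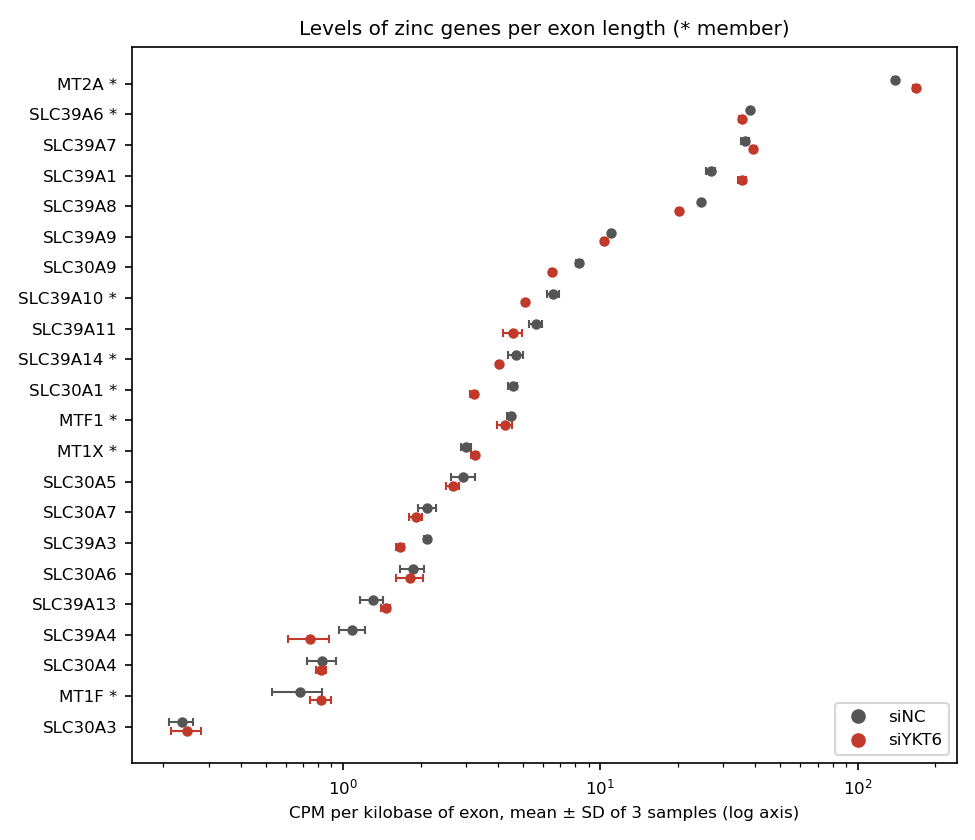
Level per kilobase of annotated exon (log axis) of the members and other SLC30 and SLC39 genes with a mean of at least 1 CPM, as the mean ± SD of 3 siNC (grey) and 3 siYKT6 (red) samples, ordered by the siNC level. MT2A stands highest, at 140 and 169 CPM per kilobase in siNC and siYKT6 samples, and SLC39A14, SLC30A1 and MTF1 lie side by side in siNC samples at 4.70, 4.56 and 4.48.

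The other zinc transporters were read for the same comparison. Together with the 4 member transporters, 18 of 24 listed SLC30 and SLC39 genes could be tested, of which 2 were higher, 9 were lower and 7 did not pass, with a median log2 fold change of -0.14. Over all genes tested, 14.6% were higher and 16.3% were lower. Among the 11 tested importers of the SLC39 family, 2 were higher and 7 were lower, with a median of -0.22. Among the 7 tested SLC30 genes, 2 were lower, SLC30A1 and SLC30A9, with a median of -0.14.

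SLC39A1, which encodes the plasma membrane importer ZIP1, went the other way from the 3 member importers. It stood at 90.9, 94.9 and 87.7 CPM in siNC and at 116.1, 120.4 and 124.5 CPM in siYKT6 samples, and the groups lay apart (log2 fold change 0.40, standard error 0.0386, adjusted p = 5.4e-08). Its exons overlap those of CREB3L4 on the opposite strand, by 179 bases in the longest overlap. SLC39A7, whose product ZIP7 releases zinc from the endoplasmic reticulum, rose from 104.0 ± 3.29 to 112.0 ± 2.29 CPM (log2 fold change 0.11, adjusted p = 0.027), a call that was lost without siNC replicate 2 (adjusted p = 0.0748), siNC replicate 3 (0.128), siYKT6 replicate 2 (0.0520) or siYKT6 replicate 3 (0.0744). Its exons overlap those of RXRB on the opposite strand, by 244 bases in the longest overlap, and whether reads were counted by strand is not stated.

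SLC39A8, the gene of the zinc and manganese importer ZIP8, fell from 160.2 ± 0.841 to 130.5 ± 1.71 CPM (log2 fold change -0.30, standard error 0.0325, adjusted p = 3.5e-07). SLC39A3, a plasma membrane importer, fell from 9.65 ± 0.297 to 7.58 ± 0.278 CPM (log2 fold change -0.35, adjusted p = 7.7e-04). SLC39A4, whose loss causes the zinc deficiency acrodermatitis enteropathica, fell from 5.47 ± 0.628 to 3.75 ± 0.672 CPM (log2 fold change -0.55, standard error 0.122, adjusted p = 0.0013). These 3 genes and SLC39A11, which fell by 0.29 on the log2 scale (adjusted p = 3.8e-04), went in the direction of the member importers. On the same strand, the exons of SLC39A8 and SLC39A3 overlap those of another annotated gene, with longest overlaps of 197 and 332 bases. Those of SLC39A4 do so on the opposite strand, with a longest overlap of 180 bases. SLC39A9 and SLC39A13 did not pass (log2 fold changes -0.09 and 0.16, adjusted p = 0.071 and 0.18), although their groups did not overlap.

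Among the other SLC30 genes, SLC30A9, the gene of a mitochondrial zinc transporter, fell from 59.57 ± 1.66 to 46.84 ± 0.84 CPM (log2 fold change -0.35, standard error 0.0392, adjusted p = 5.4e-07). SLC30A5, SLC30A6 and SLC30A7, which load zinc into the secretory pathway, had log2 fold changes of -0.14, -0.02 and -0.15 and did not pass (adjusted p = 0.15, 0.91 and 0.091). Without siNC replicate 1 the adjusted p was 0.0401 for SLC30A5 and 0.0448 for SLC30A7, and without siYKT6 replicate 2 it was 0.0481 for SLC30A7. SLC30A4, of endosomes, and SLC30A3, known from synaptic vesicles, had log2 fold changes of -0.02 and 0.06 (adjusted p = 0.88 and 0.83).

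**Figure D4:**
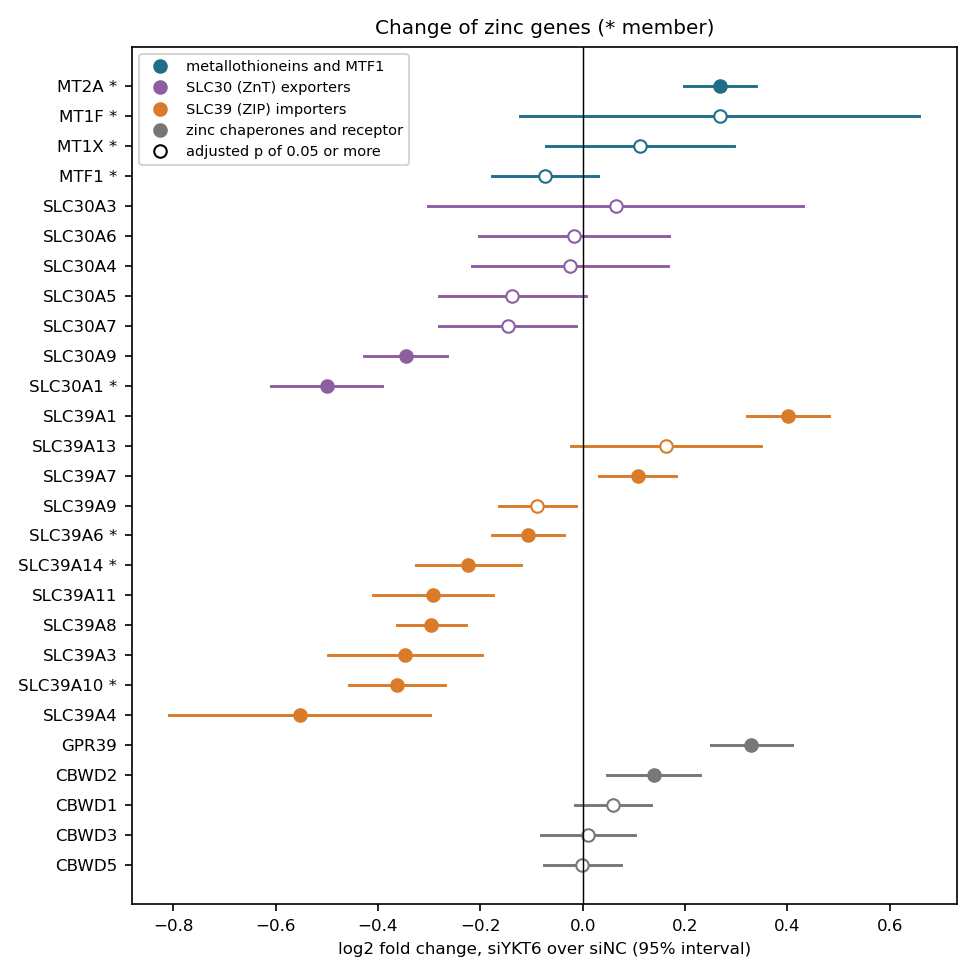
Log2 fold change of siYKT6 over siNC with its 95% interval for the tested metallothioneins, MTF1, SLC30 and SLC39 transporters and other zinc genes, with filled points for an adjusted p under 0.05 and stars for the members. SLC30A1 stands at -0.50 and SLC39A10 at -0.36, while MT2A at 0.27 and SLC39A1 at 0.40 lie on the other side of 0.

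Of 5 tested genes of zinc chaperones and of a zinc receptor, 2 rose and the other 3 did not pass. Over all genes tested, 14.6% were higher and 16.3% were lower. GPR39, a receptor that senses extracellular zinc, rose from 76.34 ± 1.49 to 96.0 ± 3.61 CPM (log2 fold change 0.33, standard error 0.0377, adjusted p = 6.2e-07). CBWD2, of a family of zinc chaperones, rose by 0.14 on the log2 scale (adjusted p = 0.019), and this call was lost without siNC replicate 1 (adjusted p = 0.0511), siNC replicate 2 (0.0848) or siYKT6 replicate 2 (0.125). CBWD1, CBWD3 and CBWD5 had log2 fold changes of 0.06, 0.01 and -0.0005. These copies share 59.4% to 87.0% of their 50-base words with other genes, so their reads cannot be assigned with certainty. Of 4 tested zinc enzymes of the cell surface that acquire zinc in the secretory pathway, 1 was lower and 3 did not pass. The share lower over all genes tested was 16.3%. The median log2 fold change of the 4 was -0.11. The lower gene, the carbonic anhydrase gene CA12, fell from 2.35, 1.66 and 2.30 CPM to 0.461, 0.379 and 0.450 CPM (log2 fold change -2.29, standard error 0.217, adjusted p = 4.3e-08).

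Factors that are known to act at metallothionein promoters besides MTF1 were measured as well. Of 9 tested, 1 was higher, 4 were lower and 4 did not pass, with a median log2 fold change of -0.06. Among all genes tested, 14.6% were higher and 16.3% were lower. HIF1A, the oxygen-regulated factor, fell from 913.0 ± 16.7 to 603.1 ± 9.14 CPM (log2 fold change -0.60, adjusted p = 1.8e-12). NFE2L2, which encodes the oxidative stress factor NRF2, the coactivator EP300 and the glucocorticoid receptor NR3C1 fell by 0.20, 0.17 and 0.11 on the log2 scale (adjusted p = 5.7e-05, 4.9e-04 and 0.031). The call for NR3C1 was lost without any 1 of siNC replicates 1, 2 and 3 and siYKT6 replicates 2 and 3, with adjusted p = 0.0628 to 0.0905, and also under upper quartile scaling (0.0704) and without a filter on low counts (0.123). USF1, named here because it was the 1 gene higher, lay at the threshold with overlapping groups (log2 fold change 0.14, adjusted p = 0.0498), and its adjusted p was 0.0579 to 0.22 without any 1 of siNC replicates 1, 2 and 3 and siYKT6 replicates 2 and 3, 0.0703 with DESeq2 and 0.0631 with limma-voom.

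Genes that share inducers with the metallothioneins moved in both directions. Of 12 tested genes induced by cadmium or arsenite through heat shock factor or NRF2, 3 were higher, 6 were lower and 3 did not pass, with a median log2 fold change of -0.10. The shares over all genes tested were 14.6% higher and 16.3% lower. SLC7A11, the cystine transporter, fell from 119.0 ± 3.17 to 60.36 ± 3.57 CPM (log2 fold change -0.98, adjusted p = 1.6e-13), and SRXN1, GCLC and HSPA1B fell by 0.37, 0.35 and 0.32 on the log2 scale. The 3 higher genes, named after their values were seen, were HMOX1, DNAJB1 and NQO1. HMOX1, which encodes a heme oxygenase, stood at 1.52, 1.26 and 1.84 CPM in siNC and at 2.73, 2.56 and 2.60 CPM in siYKT6 samples (log2 fold change 0.76, standard error 0.153, adjusted p = 5.6e-04). Both DNAJB1 and NQO1 rose by 0.16 (adjusted p = 0.0049 and 0.0064), and without siNC replicate 3 the adjusted p of DNAJB1 was 0.0512.

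Of 9 tested genes induced by glucocorticoids, which also induce MT2A, 1 was higher, 6 were lower and 2 did not pass, with a median of -0.27. CEBPD, SGK1, ERRFI1 and GLUL fell by 0.50, 0.40, 0.39 and 0.31 on the log2 scale, and the higher gene, FKBP5, named after its value was seen, rose by 0.12 (adjusted p = 0.044, but 0.0597 with DESeq2 and 0.0509 to 0.198 without any 1 of siNC replicates 1 and 2 and siYKT6 replicates 1, 2 and 3). Of 9 tested genes of the IL6 and STAT3 pathway and its response, 1 was higher, 3 were lower and 5 did not pass, with a median of -0.17. IL6, the cytokine gene, rose from 1.35 ± 0.369 to 5.27 ± 0.258 CPM (log2 fold change 1.99, adjusted p = 1.2e-09), while IL6R, IL6ST and LCN2 fell by 0.39, 0.35 and 0.17. The call for IL6R was lost without siNC replicate 1 (adjusted p = 0.0670) or siYKT6 replicate 2 (0.101). Of 10 genes of copper handling, the other metal that metallothioneins bind, 1 was higher, 2 were lower and 7 did not pass, with a median of -0.06. For the glucocorticoid, IL6 and copper lists alike, the shares over all genes tested were 14.6% higher and 16.3% lower. SLC31A1, the copper importer, and SCO1, a mitochondrial copper chaperone, fell by 0.42 and 0.46 (adjusted p = 1.9e-07 and 2.7e-08), and ATP7A, a copper-exporting ATPase, rose by 0.26 (adjusted p = 0.0025).

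The 5 genes of at least 5 CPM whose CPM followed that of MT2A most closely over the 6 samples were SNX10, TK1, CAMK2N1, LMNA and PPT1, with Pearson's r of 0.996 to 0.997 on log2(CPM + 0.01). They rose by 0.35, 0.37, 0.50, 0.24 and 0.41 on the log2 scale. The 6 samples form 2 groups of 3, so a high r reflects mainly the step between the groups, and 680 of the 11614 genes compared had an r over 0.95. The values are given as a description, without a test.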

How the data were processed

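Gene expression was measured by stranded mRNA sequencing in 3 siNC and 3 siYKT6 samples of 5637 cells, grouped by the labels. According to the study's methods and the submitters' processing notes, reads were filtered with fastp 0.23.0, aligned to GRCh38 and counted per gene with featureCounts of Subread 1.5.1. The authors deposited raw counts, not normalized, with the summed exon length of each gene, a deposited length in bases used as a score to scale levels. For the aligner and for the strand and multimapping options of featureCounts, the name and settings were not given in the sources used here. Even numbers made up 68.8% to 70.0% of counts from 1 to 20, as happens when the 2 mates of a pair each count, and halved counts were tried as an alternative.

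Genes with few counts were removed with filterByExpr (15851 genes), and siYKT6 was compared with siNC with edgeR 4.0.16 (R 4.3.3), by its quasi-likelihood test after TMM scaling, with Benjamini-Hochberg adjustment over all genes tested and a threshold of 0.05. Mean chi-square per gene was 3.63 to 5.99 between replicates of a group and 32.8 to 40.3 between groups. Counting both mates of a pair would raise these values by itself, and they cannot tell separate cultures from technical copies. Each replicate counted as 1 sample. The script was tested on simulated data. The members and lists were chosen with earlier results of these data known.

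The text names all members, YKT6, every measured other zinc transporter and zinc-handling gene with a mean of at least 1 CPM, the called genes with the 4 smallest p in each other list, and the 5 genes most like MT2A. The lists cover other metallothioneins, SLC30, SLC39, zinc handling, promoter factors, metal stress, glucocorticoid, IL6 and STAT3, copper, zinc ectoenzyme, epithelial and other-cell marker genes. Alternatives were DESeq2's size factors and upper quartile scaling in edgeR, no filter, at least 1 CPM in every sample, DESeq2 1.42.0, limma-voom (limma 3.58.1), halved counts, a block for the replicate number, and each replicate left out in turn. Promoter windows are from RefSeq, 50-base words from GENCODE transcripts, and exons from the positions deposited with the counts. Intervals are 95% intervals of the edgeR fit.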

Additional observations from a re-analysis of the deposited data

How the results depend on the processing

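The 14 alternatives left the main results in place with 1 exception. In every one of them 1 member, MT2A, was higher, with a log2 fold change of 0.24 to 0.29. SLC30A1 (-0.52 to -0.47), SLC39A10 (-0.40 to -0.33) and SLC39A14 (-0.27 to -0.18) stayed lower and past the threshold in every one. Leaving out each replicate in turn gave 3 to 4 members lower, and upper quartile scaling and no filter on low counts gave 3, each time through SLC39A6, the exception. MT1X, MT1F and MTF1 passed the threshold in none of the alternatives that could test them, the filter of at least 1 CPM in every sample having removed MT1F. Over all genes, 2503 to 3475 were called higher and 2916 to 3440 lower. Of 822 values of 59 genes under an alternative, 759 kept their direction and side of the threshold, 42 fell short of it, 3 passed it and 18 changed sign, all of the last in genes that did not pass the test. CBWD5 changed sign with DESeq2's size factors (0.00114), upper quartile scaling (0.0176), no filter (0.0117), at least 1 CPM in every sample (0.000791) and DESeq2 (0.00109), and SLC30A6 with upper quartile scaling (0.000421). When each replicate was left out in turn, log2 fold changes ran from -0.0189 to 0.168 for SLC30A3, -0.0946 to 0.0937 for SLC30A4, -0.104 to 0.0761 for SLC30A6, -0.0319 to 0.0471 for CBWD3 and -0.0206 to 0.0317 for CBWD5. The cause was not tested.

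Deviations from the group means of same-numbered samples were uncorrelated over all genes tested (0.0065, -0.0047 and 0.0092). Genes with few reads, whose deviations are mostly sampling noise, are among them. These values therefore cannot tell whether same-numbered samples were handled together, which the labels do not say. With the replicate number as a block, 2958 genes were higher and 3312 lower, among them 1 and 4 members, and MT2A and SLC30A1 had log2 fold changes of 0.27 and -0.50 (adjusted p = 1.1e-05 and 5.8e-07). YKT6 stood at -1.86, and the adjusted p of USF1 was 0.0549. Depth limits MT1E and the other rare metallothioneins, and at 48 to 106 reads per library the interval of MT1F is wide.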
